A study of Mus musculus with 16 samples.

Results

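Gata3, Il4 and Il4ra were followed in mouse CD4 T cells that had been treated to delete Sin3a. Its product, Sin3A, is the core protein that holds histone deacetylases in a corepressor complex. The 3 genes were chosen by name, as a transcription factor, a cytokine and a cytokine receptor of the T helper 2 (Th2) programme, and all 3 were among the 7978 gene names that could be tied to a line of expression values, out of 8552 names in the deposited table. The names matter for every direction given below, because the table names only genes that its authors list as lower in deficient Th17 cells. A lower level of Gata3, Il4 and Il4ra in that comparison is therefore a condition of their being visible, and no named gene could have risen there.

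GATA3 is the transcription factor that defines Th2 cells: it opens the locus shared by Il4, Il13 and Il5 and is itself raised by IL-4 signalling. Interleukin-4 is the cytokine that both marks and drives Th2 cells. It binds a receptor whose specific chain is encoded by Il4ra and whose other chain is the common gamma chain or the IL-13 receptor alpha 1 chain, and the bound receptor activates the transcription factor STAT6 through Janus kinases. Th17 polarization normally goes along with a damped Th2 programme, and IL-4 is known to oppose Th17 differentiation.

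All libraries came from purified CD4 T cells of C57BL/6J mice, 2 months old, with Rosa26-CreERT2 (+/-), a ubiquitous tamoxifen-activated Cre recombinase, and floxed Sin3a alleles (Sin3AF/F). Th17 deficient cells had 6 days of IL-7 with tamoxifen and then 3 days of Th17 polarization, and Th17 sufficient cells had the same without tamoxifen. IL-7 deficient cells were taken after the 6 days of IL-7 with tamoxifen, and IL-7 sufficient cells after the 6 days without it. Each of the 4 groups held 4 libraries, with 19732908 to 28778805 restored reads in each. They are named D3TAM955, D3TAM957, D3TAM959 and D3TAM960 (Th17 deficient), D3955, D3957, D3959 and D3960 (Th17 sufficient), and likewise with BASALTAM (IL-7 deficient) and BASAL (IL-7 sufficient) before the same 4 numbers, and values per library are given in this order. No tamoxifen-treated culture without floxed alleles was analysed here, so deletion and tamoxifen cannot be told apart. Th17 cells also had 3 more days of culture than IL-7 cells, so polarization and time in culture cannot be told apart. These are bulk cultures, in which fewer expressing cells and less RNA per cell cannot be told apart either. Nothing in the labels ties the libraries to separate animals, and the spread behind each p-value may therefore be technical.

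Values are restored normalized counts, meaning reads divided by the authors' size factor of the library. Sin3a itself averaged 1774 ± 49.8 in Th17 deficient cells and 2106 ± 181 in Th17 sufficient cells, and 2211 ± 98.2 in IL-7 deficient cells and 2524 ± 249 in IL-7 sufficient cells (SD, n = 4 each). Its difference was -0.24 (SE 0.08) on the log2 scale in Th17 cells (limma adjusted p = 0.0111, and 0.0929 without the 4 libraries that share the number of D3957) and -0.19 (SE 0.08) in IL-7 cells (limma adjusted p = 0.182). The labels do not say which exons are floxed, so reads over the whole gene are a weak check of the deletion. A lower level in Th17 deficient cells was also a condition for Sin3a to be named, so that direction could not have come out otherwise. The defining CD4 T cell genes were abundant in every library: the 8 joined of 13 such genes summed to 40813 to 44507 in Th17 deficient, 63926 to 68199 in Th17 sufficient, 77039.9 to 81684 in IL-7 deficient and 81848 to 92562 in IL-7 sufficient cells. The naming condition holds for these 8 genes too, so the lower Th17 deficient sum is no result about CD4 T cell genes as a whole. Library D3955 (Th17 sufficient) and library BASAL960 (IL-7 sufficient) had the lowest mean correlation with the other libraries of their groups (0.983 and 0.981 across rows, against 0.984 to 0.992 elsewhere), and the main results that they enter are given with and without them.

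The promoters of the 3 genes are shown because their base composition sets the cytokine apart from the factor and the receptor. Each line is the 250 bases before the RefSeq start, read 5′ to 3′ on the gene's strand, in build GRCm38.p6. Capitals mark any match to GATA, TTCNNNNGAA (a STAT6-type site) or TTCNNNGAA (a STAT5-type site), searched on both strands.
Il4, chr11:53618666-53618915, minus strand: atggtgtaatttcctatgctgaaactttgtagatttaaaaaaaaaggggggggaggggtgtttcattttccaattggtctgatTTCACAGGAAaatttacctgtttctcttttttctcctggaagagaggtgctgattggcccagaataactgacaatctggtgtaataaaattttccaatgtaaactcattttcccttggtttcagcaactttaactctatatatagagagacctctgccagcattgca
Gata3, chr2:9878601-9878850, minus strand: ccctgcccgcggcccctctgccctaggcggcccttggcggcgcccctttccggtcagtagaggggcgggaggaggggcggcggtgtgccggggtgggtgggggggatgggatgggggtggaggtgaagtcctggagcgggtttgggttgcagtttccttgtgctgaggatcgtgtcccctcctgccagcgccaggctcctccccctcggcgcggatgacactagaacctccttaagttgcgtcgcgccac
Il4ra, chr7:125552021-125552270, plus strand: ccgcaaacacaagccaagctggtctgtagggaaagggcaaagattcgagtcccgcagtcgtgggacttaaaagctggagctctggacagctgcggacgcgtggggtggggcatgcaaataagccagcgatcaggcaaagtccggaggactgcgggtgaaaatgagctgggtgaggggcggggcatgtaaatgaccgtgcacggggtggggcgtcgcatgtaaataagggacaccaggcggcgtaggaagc

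Of its 250 bases the Il4 window held 94 that are G or C, with 0 CpG, the Gata3 window 175 with 19 CpG and the Il4ra window 149 with 17 CpG, against a median of 131 and 6 CpG over 32851 promoter windows of the same length. The Il4 window held 1 match to TTCNNNNGAA, which 5.9% of all windows hold. This match, TTCACAGGAA, begins 167 bases before the start and overlaps GGAAA, the core of sites for the T cell factor NFAT. GGAAA was found 5 times in the Il4 window, 2 times in the Gata3 window and 1 time in the Il4ra window, and at least 1 time in 55.6% of all windows. TTCNNNGAA, GATA and TGANTCA (an AP-1 site) were in none of the 3 windows, while 7.0%, 53.6% and 6.7% of all windows hold them. Letters in a window are a description and do not show binding.

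Gata3 was lower after Sin3a deletion in Th17 cells, and lower in Th17 cells than in IL-7 cells of either genotype. In Th17 deficient cells it had 147.6, 79.2, 109 and 140.4 normalized counts, and in Th17 sufficient cells 197.5, 316, 329 and 339.7. The groups did not overlap, and the nearest pair was 147.6 in D3TAM955 and 197.5 in D3955. The D3955 value was set at 200 reads from digits that alone would read as 2, and at 200 the line returned the authors' fold change within 3.3e-08. The difference was -1.31 on the log2(count + 1) scale (SE 0.19, 95% interval -1.71 to -0.92, limma adjusted p = 1.4e-05), a 2.48-fold lower level. Without D3955 it was -1.49 (limma adjusted p = 1.75e-06). This comparison called 57.7% of the 13518 rows tested, 27.9% of all rows as lower and 29.7% as higher, and 55.4% of the 6365 tested rows that carry a gene name were called lower, so a call here is common among named genes. Within the named rows, 9.87% had a change as low as that of Gata3 or lower.

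In IL-7 cells the Gata3 difference was small. Gata3 had 823, 798, 784 and 926 normalized counts in IL-7 deficient cells, against 992, 949, 973 and 1278 in IL-7 sufficient cells. Every deficient value was below every sufficient value, with 926 and 949 as the nearest pair. The difference was -0.32 (SE 0.19, 95% interval -0.72 to 0.07) and did not pass the main limma test (adjusted p = 0.386). A two-sided exact permutation test of Gata3 alone gave p = 0.0286, the smallest that 4 against 4 libraries allow. Same-numbered IL-7 libraries deviated together, and an exact test over their 4 pairs, all lower in deficient cells, gave p = 0.125, the smallest that 4 pairs allow. Without BASAL960 the difference was -0.22 (limma adjusted p = 0.646). The comparison called 4.59% of all rows, 2.4% as lower and 2.19% as higher.

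The Gata3 difference after deletion was larger in Th17 than in IL-7 cells, by -0.99 on the log2 scale (SE 0.27, 95% interval -1.55 to -0.43, limma adjusted p = 0.00722). This test of the difference called 39.3% of all rows, 18% as lower, and 35.6% of the named rows as lower. It takes in the Th17 comparison by which genes are named. The median difference was -0.35 over named rows, against 0.01 over all rows, and 14.2% of named rows were as low as Gata3 or lower. The test was not passed without the 4 libraries that share the number of D3957 (-0.74, limma adjusted p = 0.0765) or of D3959 (-0.90, adjusted p = 0.0695).

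Th17 polarization went with low Gata3 in both genotypes. Th17 sufficient cells averaged 295 ± 66 against 1048 ± 154 in IL-7 sufficient cells, a difference of -1.84 (SE 0.19, limma adjusted p = 8.1e-08). Without D3955 it was -1.66 (limma adjusted p = 1.56e-07) and without BASAL960 -1.75 (limma adjusted p = 2.46e-07). Th17 deficient cells averaged 119 ± 31.4 against 833 ± 64.1 in IL-7 deficient cells, a difference of -2.83 (SE 0.19, limma adjusted p = 2.66e-10). These comparisons called 77.3% and 79.4% of all rows, of which 41.5% and 41.5% of all rows as lower. The second holds the Th17 deficient cells by which genes are named. The median over named rows was 0.01 in sufficient and -0.39 in deficient cells. Of the named rows, 6.43% and 4.59% had a change as low as that of Gata3 or lower. From low to high, Gata3 stood lowest in Th17 deficient, then Th17 sufficient, then IL-7 deficient, then IL-7 sufficient cells. No neighbouring groups in this order overlapped, the IL-7 deficient and IL-7 sufficient pair did not pass the limma test, and the Th17 sufficient and IL-7 deficient pair, which differ in culture and deletion at once, was not tested.

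**Figure D1:**
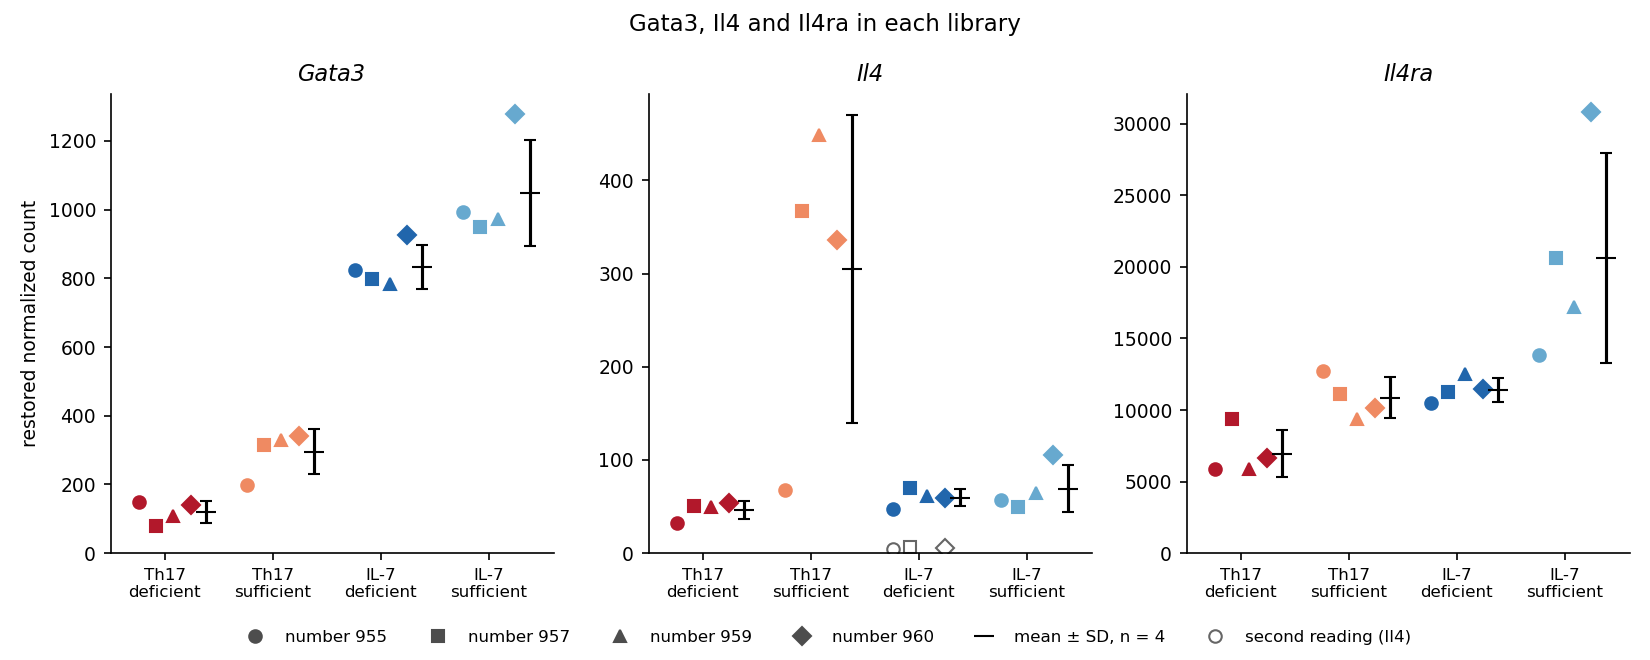
Restored normalized counts of Gata3, Il4 and Il4ra in each of the 16 libraries, with the libraries' numbers as symbols and the group mean ± SD (n = 4) as black bars; open symbols give the second reading of 3 Il4 values in IL-7 deficient cells. Gata3 is lowest in Th17 deficient cells, Il4 is highest in 3 of 4 Th17 sufficient libraries, and Il4ra is highest in IL-7 sufficient cells, with library BASAL960 at 30836.

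Il4 showed another pattern: it was high in Th17 sufficient cells and low in Th17 deficient cells. Il4 had 32.5, 50.8, 49.8 and 53.4 normalized counts in Th17 deficient cells, against 68.1, 367, 449 and 336 in Th17 sufficient cells. The groups did not overlap, but library D3955, at 68.1, lay far below the other Th17 sufficient libraries and near the highest deficient value. These values stand on 37 to 62 reads per deficient library and 69 to 516 reads per sufficient library. The mean log2 difference was -2.41 (two-sided exact permutation p = 0.0286, the smallest possible), and without D3955 it was -3.03 (exact permutation p = 0.0286). In a limma fit over all rows, with unsettled ones kept in, the difference was -2.41 (SE 0.44, 95% interval -3.34 to -1.48, adjusted p = 0.000213). The groups share their spread in that fit. Its SE, interval and p therefore also rest on the uncertain IL-7 deficient values at their likeliest reading, given below.

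The value of D3955 depends on how the Il4 name was tied to its line. The authors' fold change was matched at 69 reads in D3955, where the 4 sufficient libraries alone would favour 10 times as many. At 69 reads the match lay within 2.2e-07 of the authors' fold change and the next line differed by 1.5e-04. The authors' deposited table gives Il4 a log2 fold change of -2.71 (its SE 0.39), with Gata3 at -1.31 and Il4ra at -0.64 in the same table. Their fold change compares group levels, while the -2.41 above is a difference of mean log2(count + 1), so they need not be equal. Library D3955 was also the lowest of its group for Il13, at 185 against 816 to 916 in the other 3, and for Areg, at 8.89 against 66.6 to 166. No power of 10 was moved to name Il13, while 1 was moved to name Areg.

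In IL-7 cells Il4 was low, and at the likeliest reading the genotypes overlapped. In IL-7 deficient cells it had 47.5, 70.4, 61.4 and 59.3 normalized counts at the likeliest reading, which has a posterior probability of 72.6%. In IL-7 sufficient cells it had 57, 49.1, 64.9 and 105.7. The groups overlapped, and the mean log2 difference was -0.16 (two-sided exact permutation p = 0.657). An exact test over the 4 same-numbered pairs, 3 of them lower in deficient cells, gave p = 0.625. The second reading of the deficient digits, with a posterior of 9.23%, gives 4.75, 7.04, 61.4 and 5.93, for which the difference is -2.50 (exact permutation p = 0.0857), so the size of the Il4 difference in IL-7 cells is not settled.

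Without Sin3a deletion, Il4 averaged 305 ± 165 in Th17 cells against 69.2 ± 25.2 in IL-7 cells (SD, n = 4 each), a mean log2 difference of 1.89 (exact permutation p = 0.0571). D3955 lies inside the IL-7 range, and without it the difference was 2.51 (exact permutation p = 0.0286). In the fit over all rows it was 1.89 (SE 0.44, limma adjusted p = 0.000919), with a spread that takes in the likeliest reading of the IL-7 deficient digits. In deficient cells Il4 averaged 46.6 ± 9.55 under Th17 polarization against 59.7 ± 9.42 in IL-7 at the likeliest reading, a difference of -0.36 (exact permutation p = 0.114). At the second reading the IL-7 deficient mean was 19.8 and the difference 1.98 (exact permutation p = 0.143), so its direction turns with the reading.

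The Il4 difference after deletion was larger in Th17 than in IL-7 cells by -2.25 at the likeliest reading (SE 0.62, limma adjusted p = 0.00988 in the fit over all rows). At the second reading of the IL-7 deficient digits it was 0.09, without a test, so this difference rests on the likeliest reading. As for Gata3, it takes in the Th17 comparison by which genes are named. From low to high the group means at that reading ran Th17 deficient, IL-7 deficient, IL-7 sufficient and Th17 sufficient, and among the first 3 of these no neighbouring pair was separated beyond its spread. At the second reading IL-7 deficient cells had the lowest mean.

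Il4ra was lower after Sin3a deletion in both culture conditions. In Th17 deficient cells it had 5857, 9383, 5912 and 6676 normalized counts, against 12722, 11128, 9407 and 10146 in Th17 sufficient cells. The groups touched without overlap: D3TAM957, at 9383, lay just below D3959, at 9407. The difference was -0.66 (SE 0.19, 95% interval -1.06 to -0.26, limma adjusted p = 0.00647), a 1.58-fold lower level, and 30.9% of the named rows had a change as low or lower. Without D3955, the highest of its group for Il4ra, the difference was -0.58 (limma adjusted p = 0.0227).

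In IL-7 deficient cells Il4ra had 10468, 11281, 12512 and 11446 normalized counts, against 13835, 20608, 17168 and 30836 in IL-7 sufficient cells. All deficient values lay below all sufficient ones, and the sufficient libraries spread 2.23-fold. The difference was -0.79 (SE 0.19, 95% interval -1.19 to -0.39, limma adjusted p = 0.0236). An exact test over the 4 same-numbered pairs, all lower in deficient cells, gave p = 0.125, the smallest that 4 pairs allow. In this comparison 2.4% of all rows and 3.77% of named rows were called lower, and 4.96% of named rows had a change as low or lower. The value of BASAL957 was raised by 1 power of 10, to 26460 reads. The call is near its limit: without BASAL960 the difference was -0.57 (limma adjusted p = 0.0467). It was lost without the 4 libraries that share the number of BASAL957 (-0.76, adjusted p = 0.180), of BASAL959 (-0.90, adjusted p = 0.0878) or of BASAL960 (-0.58, adjusted p = 0.0946). Leaving out 1 library also ended it for BASALTAM955 (-0.75, adjusted p = 0.0741), BASALTAM957 (-0.78, adjusted p = 0.0692) and BASAL957 (-0.77, adjusted p = 0.0657).

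The deletion difference of Il4ra in Th17 cells minus that in IL-7 cells was 0.13 (SE 0.27, limma adjusted p = 0.731), with a 95% interval from -0.43 to 0.69. Th17 polarization went with lower Il4ra in both genotypes. Th17 sufficient cells averaged 10850.4 ± 1433 against 20612 ± 7356 in IL-7 sufficient cells, a difference of -0.87 (SE 0.19, limma adjusted p = 0.000448). Without BASAL960 it was -0.66 (limma adjusted p = 0.00077) and without D3955 -0.95 (limma adjusted p = 0.000488). Th17 deficient cells averaged 6957 ± 1660.1 against 11427 ± 840.2 in IL-7 deficient cells, a difference of -0.74 (SE 0.19, limma adjusted p = 0.0017). Each of these comparisons called 41.5% of all rows lower. Of the named rows, 20.2% in sufficient and 38% in deficient cells had a change as low as that of Il4ra or lower. The deficient comparison holds the Th17 deficient cells by which genes are named, and its median was -0.39 over named rows, against -0.06 over all rows. In order of level Il4ra stood lowest in Th17 deficient cells, next in Th17 sufficient and IL-7 deficient cells, whose ranges overlap, and highest in IL-7 sufficient cells.

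**Figure D2:**
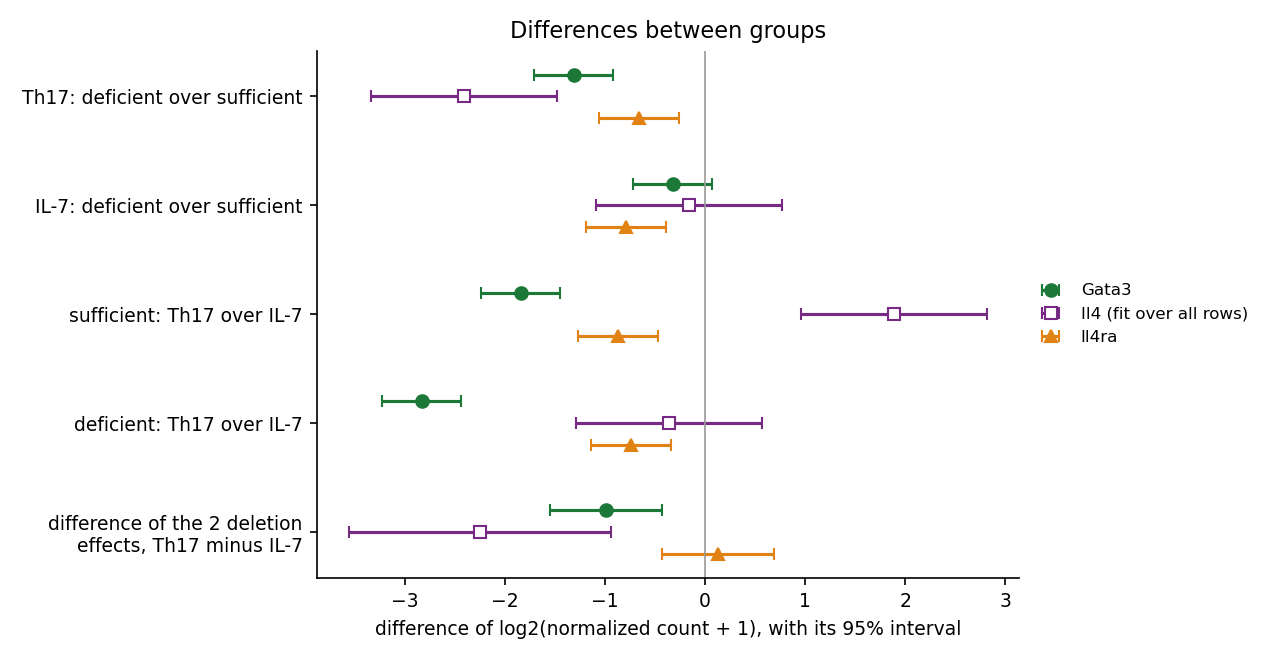
Differences of log2(normalized count + 1) for Gata3, Il4 and Il4ra in the 5 comparisons, with 95% intervals from limma. Il4 comes from the fit over all rows at the likeliest reading of the IL-7 deficient digits. Through the shared spread that reading enters every Il4 interval. Gata3 and Il4ra were lower in Th17 than in IL-7 cells of both genotypes, while Il4 was higher in sufficient cells, by 1.89.

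The other parts of the IL-4 receptor route were read from a list of 19 genes, of which 11 are named in the table and 10 were tested, Il4ra among them. In Th17 deficient against Th17 sufficient cells 8 of the 10 fell, where 55.4% of named rows and 27.9% of all rows were called lower. Their median was -0.41 against -0.40 over all named rows and -0.01 over all rows. Irs2, an adaptor that links the receptor to phosphoinositide 3-kinase, had 549 to 974 normalized counts in Th17 deficient cells, against 2360.5 to 3113 in Th17 sufficient cells, without overlap. Its difference was -1.83 (SE 0.17, limma adjusted p = 9.68e-08). Irs2 in IL-7 cells differed by 0.28 (adjusted p = 0.391), and the difference between both effects was -2.11 (adjusted p = 5.34e-06).

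Stat6, the main transcription factor behind the IL-4 receptor, differed by -0.44 in Th17 cells (limma adjusted p = 0.000107) and by 0.07 in IL-7 cells (adjusted p = 0.679). It had 4538 to 4653 normalized counts in Th17 deficient cells, against 5745 to 6858 in Th17 sufficient cells. Jak3, the kinase bound to the common gamma chain, fell by 0.88 in Th17 cells (limma adjusted p = 0.00135). Its IL-7 difference was -0.66 (adjusted p = 0.0742, and 0.0271 with the numbers as blocks). Unlike Il4ra, Jak3 was higher in Th17 than in IL-7 cells, by 3.00 without deletion and by 2.78 with it.

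Il2rg, the common gamma chain that pairs with the Il4ra product, followed Il4ra in all 4 comparisons. It fell by 0.41 in Th17 deficient cells (limma adjusted p = 0.000305) and by 0.43 in IL-7 deficient cells (adjusted p = 0.00591), and its Th17 over IL-7 difference was -0.42 without deletion and -0.40 with it (adjusted p = 0.000118 and 0.000177). The IL-7 call of Il2rg was lost without the 4 libraries that share the number of BASAL957 (adjusted p = 0.137). The alternative partner chain, Il13ra1, had 4.79 to 13.3 normalized counts in Th17 deficient cells, against 24.5 to 32.7 in Th17 sufficient cells (exact permutation p = 0.0286). Among the feedback inhibitors, Socs3 fell by 0.40 in Th17 cells (limma adjusted p = 0.0117) and Cish fell by 0.82 in IL-7 cells (adjusted p = 0.00966). The Socs3 call was lost without the libraries numbered as D3959 (adjusted p = 0.0779) or D3960 (0.0724) or without D3TAM955 (0.0508), and the Cish call without those numbered as BASAL957 (0.158) or BASAL959 (0.0689). Socs1 differed by -0.14 in Th17 cells (adjusted p = 0.625) and by -0.82 in IL-7 cells (adjusted p = 0.0578).

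Over all 5 Th2 lists, which hold 70 genes, 46 are named in the table and 32 were tested. Of these 23 fell in Th17 deficient cells, beside the 55.4% of named rows called lower. In IL-7 deficient cells 3 fell, namely Il4ra, Il2rg and Cish, beside 3.77% of named rows and 2.4% of all rows called lower. In IL-7 cells 0 of the 32 rose by limma. An unadjusted p under 0.05 was found there for 18 of the 32, 2 of them higher, and for 18.3% of named rows and 18.6% of all rows. With the numbers as blocks 7 were called there, and without the 4 libraries that share the number of BASAL957 the limma test called 0 of the 32, with 15 at an unadjusted p under 0.05. The list of 21 Th2 transcription factors had 11 tested members, of which 9 fell in Th17 deficient cells. The median was -0.46, against -0.40 over the named rows, of which 55.4% were called lower. The 9 include Batf, an AP-1 family factor (-0.42, limma adjusted p = 0.0491), whose call was lost under 17 of 29 alternatives. Nfil3, a basic leucine zipper factor of type 2 cytokine regulation, fell by 1.93 (limma adjusted p = 1.02e-05), with 583 to 1081 normalized counts in deficient and 2395 to 4070.2 in sufficient Th17 cells. Satb1, a chromatin organizer that acts on the Th2 cytokine locus, fell by 1.09 (adjusted p = 2.79e-05), and Rbpj, the DNA-binding partner of Notch, fell by 1.05 (adjusted p = 7.7e-07). Maf, an activator of Il4, differed by -0.24 (adjusted p = 0.576).

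Genes that restrain the Th2 programme formed another list. Of 7 tested, 3 fell in Th17 deficient cells, against 55.4% of named rows: Runx3, a repressor of Il4, by 0.53 (limma adjusted p = 0.000114), Bcl6 by 0.66 (adjusted p = 0.000187) and Cblb by 0.76 (adjusted p = 7.24e-06). Of the Th2 surface receptors and targets 4 were tested and 3 fell, again beside 55.4% of named rows. These were Crlf2, a chain of the receptor for thymic stromal lymphopoietin, by 0.87, Il17rb, a chain of the interleukin-25 receptor, by 1.02, and Epas1 by 0.61 (limma adjusted p = 9.15e-05, 0.0252 and 0.0363). The calls of Epas1 and Il17rb were lost under 11 and 6 of 29 alternatives, among them the fit without the 4 libraries that share the number of D3957, where the differences were -0.30 (adjusted p = 0.35) and -0.71 (adjusted p = 0.224).

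**Figure D3:**
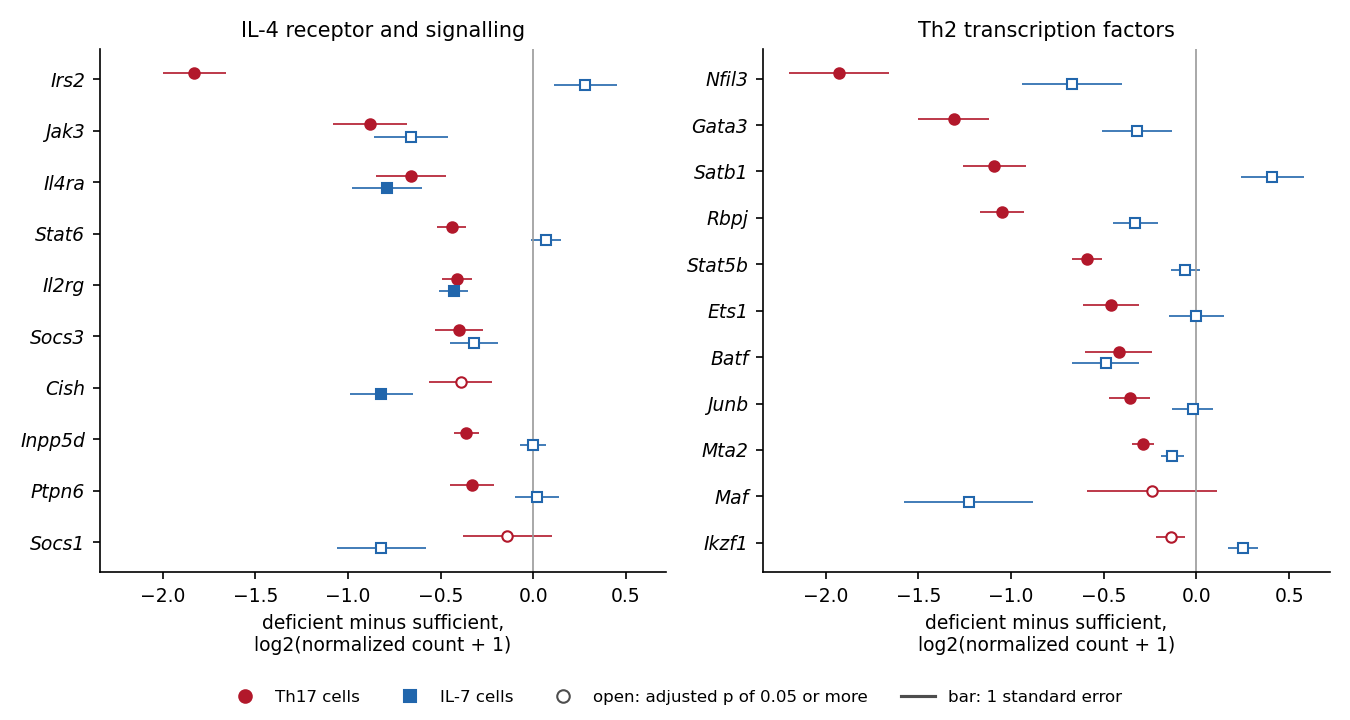
Deficient minus sufficient differences of log2(normalized count + 1) for the tested members of the IL-4 receptor list and the Th2 transcription factor list, with Th17 cells as circles, IL-7 cells as squares, filled symbols for an adjusted p under 0.05 and bars of 1 standard error. All Th17 differences lie below 0, as they must for named genes, whereas the called IL-7 differences are those of Il4ra, Il2rg and Cish.

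The Th2 cytokine list holds 9 genes, of which 8 are named in the table and 5, Il4, Il13, Il9, Il10 and Csf2, were joined. These 5 stayed outside the main limma test because their IL-7 digits were not settled, but their Th17 values were set by the join. Il13, which lies beside Il4 in the same locus, had 140, 115, 74.7 and 192 normalized counts in Th17 deficient cells, against 185, 826, 816 and 916 in Th17 sufficient cells. The groups overlapped in 1 library, D3955, and the mean log2 difference was -2.23 (exact permutation p = 0.0571). Without D3955 it was -2.78 and the groups did not overlap (exact permutation p = 0.0286). Il10 had 409 to 563 in deficient and 1108 to 1809 in sufficient Th17 cells, a difference of -1.50 (exact permutation p = 0.0286). Il9 had 1811 to 3149.9 in deficient and 1273 to 4884 in sufficient Th17 cells, a difference of -0.17 (exact permutation p = 0.686). Csf2 differed by -1.69 (exact permutation p = 0.0857), and Areg by -2.80 (exact permutation p = 0.0857), both with overlapping groups. Without D3955 the Areg difference was -3.66 (exact permutation p = 0.0286) and that of Csf2 was -1.84 (exact permutation p = 0.0857).

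**Figure D4:**
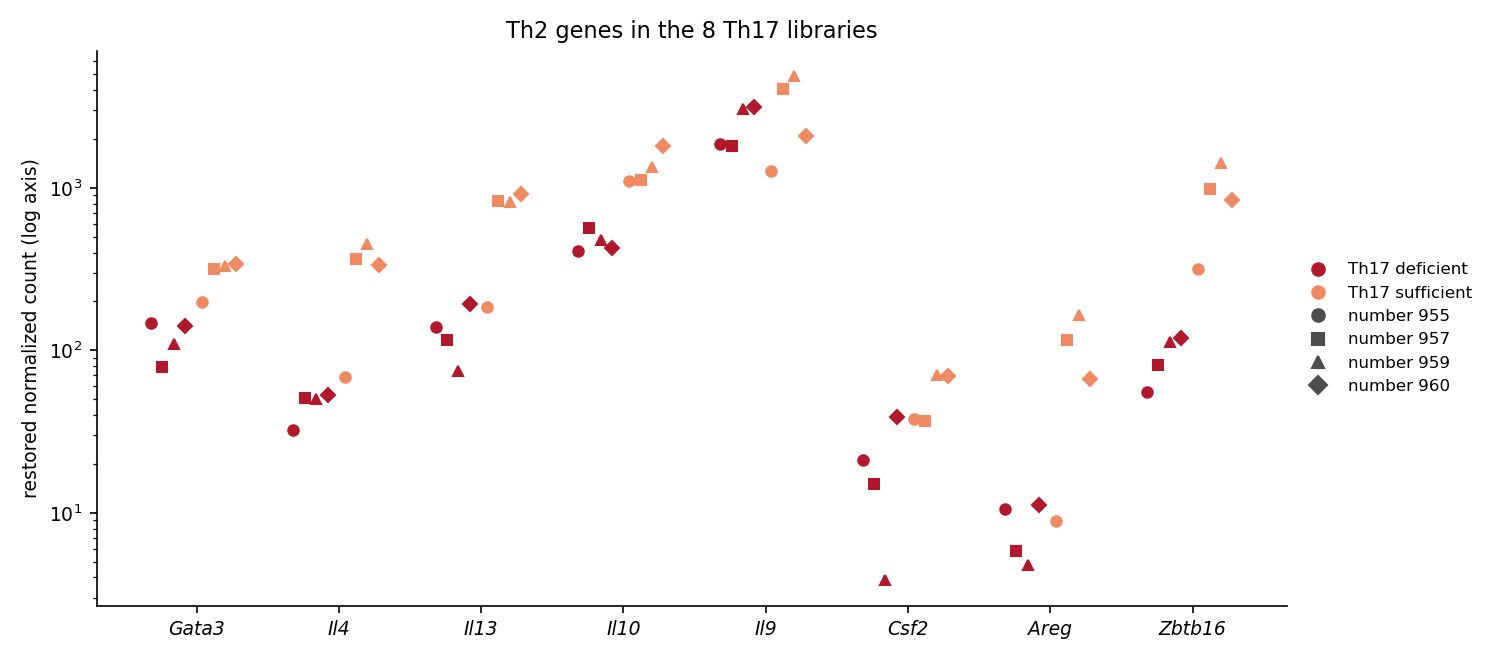
Restored normalized counts (log axis) of Gata3, 5 cytokines, Areg and Zbtb16 in the 8 Th17 libraries, deficient left of sufficient within each gene, with symbols for the libraries' numbers; levels are to be compared within a gene only. Library D3955 (circle) is the lowest of its group for Gata3, Il4, Il13, Il10, Il9, Areg and Zbtb16, and the deficient and sufficient groups overlap for Il13, Il9, Csf2 and Areg.

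Markers of other cells that can make IL-4 were measured beside it. Of 5 markers of natural killer T and CD8 T cells, 3 were joined: Zbtb16, Cd8a and Cd8b1. Their sum ran from 194 to 314 in Th17 deficient cells and 548 to 1834 in Th17 sufficient cells. It ran from 392 to 617 in IL-7 deficient cells and 617 to 839 in IL-7 sufficient cells. The IL-7 deficient sum is uncertain, since the posteriors there were 80.6% for Zbtb16 and 92.8% for Cd8a. Not every gene in the sum was apart between the Th17 genotypes. Cd8a overlapped, with 119 in D3TAM959 (deficient) and 60.2 in D3955 (sufficient), a mean log2 difference of -1.25 (exact permutation p = 0.143). Cd8b1 had 73.3 to 116 in deficient and 150 to 175 in sufficient Th17 cells, without overlap (-0.84, limma adjusted p = 0.000504). Zbtb16, which encodes the PLZF factor of natural killer T and other innate-like T cells, had 55.3, 80.8, 113 and 119 normalized counts in Th17 deficient cells. In Th17 sufficient cells it had 317, 989.8, 1429.5 and 844, a mean log2 difference of -3.14 (exact permutation p = 0.0286), and of -3.58 without D3955 (exact permutation p = 0.0286). Zbtb16, like Il4, was thus lower in Th17 deficient cells, as every named gene must be, and both were lowest in D3955 among sufficient libraries. In IL-7 cells Zbtb16 averaged 68.5 in deficient cells, at the likeliest reading, and 164 in sufficient cells. Its part in the Il4 difference was not tested. Of 12 mast cell, basophil and eosinophil markers 2 were joined: Prg2 was at 0 in 3 of 4 deficient and 3 of 4 sufficient Th17 libraries, and Hdc had 5.83 to 16.7 in deficient and 20 to 35 in sufficient Th17 cells. The 4 joined B cell markers of 5 summed to 63.3 to 186 in Th17 deficient and 137 to 327 in Th17 sufficient cells. In IL-7 cells their sums were 132 to 240.2 (deficient) and 318 to 1083 (sufficient) at the likeliest reading. These IL-7 sums are uncertain, since Ms4a1 had posteriors of 73.4% in IL-7 deficient and 36.4% in IL-7 sufficient cells. Cd79b had 93.0% in IL-7 deficient cells. The 1 joined myeloid marker of 5, Cd68, had 52.5 to 66.8, 120.5 to 175, 104 to 132 and 92.1 to 129 in the 4 groups in the same order. The B cell sums overlapped between the Th17 genotypes and, at the likeliest reading, not between the IL-7 genotypes. Cd68 was apart between the Th17 genotypes and overlapped between the IL-7 genotypes. A lower Th17 level in deficient cells was a condition for each joined marker to be named. The part of these markers in the results was not tested.

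The nearest genes on the chromosome, 3 on each side, were looked up for each member. Of the 6 neighbours each, 1 of Il4, 3 of Gata3 and 2 of Il4ra could be tested. Beside Il4, Rad50, a DNA repair gene whose introns hold the Th2 locus control region, fell by 0.36 in Th17 deficient cells (limma adjusted p = 0.00168) and differed by 0.01 in IL-7 cells. Beside Gata3, Celf2 fell by 0.43 (adjusted p = 0.000197), while Usp6nl differed by -0.11 and Atp5c1 by -0.07 without passing the test. Beside Il4ra, Kdm8 fell by 0.54 (adjusted p = 0.00492) and Nsmce1 differed by -0.27 (adjusted p = 0.0776). Among all named rows 55.4% were called lower in Th17 deficient cells, with a median of -0.40, so such calls are common among named genes.

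The genes whose pattern over the 16 libraries was most like that of each member were found among 4777 or 4778 named and settled genes with a mean of at least 100, by Pearson's r of log2(count + 1), as a description. For Gata3 these were Cr1l (r = 0.989), Chrac1 (r = 0.986) and Specc1l (r = 0.985). For Il4, at the likeliest reading of its IL-7 deficient digits, they were Fam133b (r = 0.960), Tet2 (r = 0.957) and Birc2 (r = 0.955). The r of Il4 was not computed at the second reading. Tet2 averaged 1394 in Th17 deficient, 4758 in Th17 sufficient, 1368 in IL-7 deficient and 1409 in IL-7 sufficient cells. For Il4ra they were Lpp (r = 0.937), Tmem140 (r = 0.937) and Gbp8 (r = 0.934). The libraries share groups, so genes with like group means give a high r whatever their function.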

How the data were processed

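Per the labels' protocols, poly(A) RNA of purified CD4 T cells was made into stranded libraries and sequenced as paired reads of 59 cycles. Per the submitters' processing notes, Trim Galore 0.4.4, STAR 2.6, featureCounts, edgeR and DESeq2 were used with build NCBIM37. Their settings: not given in the sources used here. The deposited table holds the authors' log2 fold change (deficient over sufficient Th17 cells) with its p-value, adjusted p-value and test statistic, a score, for 8552 genes, all below 0. It also holds the authors' mean normalized count, a signal that implies about 24 libraries, and 16 columns of normalized counts whose decimal points are lost, so each deposited column is a score of digits, not a count. 0 columns were left without a library.

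Each value is whole reads times 1 step per library (99.993% of nonzero values). Powers of 10 were set by a negative binomial posterior within groups. A row was settled at a posterior of at least 95% in every group (14143 of 17850 rows). Names went to the row that returned the authors' fold change within 1e-06, with the next row at least 20 times farther, and 425 names needed 1 power moved. Of 1000 decoys with shifted fold changes, 3 were joined in the first search and 10 after moving a power. The join uses the Th17 values, so a Th17 difference of a named gene is not independent of it. Differences were tested with limma 3.58.1 (R 4.3.3, trend on, 4 groups) on log2(normalized count + 1), for settled rows with a mean of at least 10, with Benjamini-Hochberg adjustment. Il4, not settled, was tested with two-sided exact permutation. The steps were tested on simulated data. Named were the members, members of the lists, neighbours and most similar genes. The genes and lists were chosen with earlier results of these data known. In IL-7 cells the numbers pair the samples, since same-numbered libraries deviated together (correlations 0.122 to 0.492). The exact test over pairs, the list counts under each alternative and the cytokine values without D3955 were added after seeing the data. Promoters are RefSeq sequences, matched for 3 of 3 genes.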

Additional observations from a re-analysis of the deposited data

Results flagged for a closer look

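Single libraries stood apart within their group of 4 for Gata3 and Il4. For Gata3, D3955 was low among Th17 sufficient cells at 197.529 normalized counts, and BASAL960 was high among IL-7 sufficient cells at 1278.15. For Il4, D3TAM955 was low among Th17 deficient cells at 32.5. Of 12 groups checked 3 were marked in this way, where chance marks about 1 in 20.

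The Gata3 difference after deletion was larger in Th17 than in IL-7 cells: Th17 minus IL-7 was -0.99 by limma's test of the difference. This call was lost without the 4 libraries that share the number of D3957 or of D3959. The quantity takes in the Th17 comparison by which genes are named, and its median was -0.35 over named rows, against 0.01 over all rows. For Il4 the same quantity was -2.25 in the fit over all rows, at the likeliest reading of the IL-7 deficient digits, and 0.09, without a test, at their second reading.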

How the results depend on the processing

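The deletion differences of Gata3 and Il4ra in Th17 cells, and their Th17 over IL-7 differences in each genotype, kept direction and call under all 29 alternatives run (pseudocounts 0.5 and 5, filter, scaling, trend, rows, block, left-out libraries). The planned edgeR fit was not run, since the deposited columns are not counts. Il4ra in IL-7 cells stayed at -0.79 but missed the threshold without the trend (adjusted p = 0.0501) and with only the groups compared (0.0679), and ran from -0.96 to -0.57 with libraries left out. The Gata3 difference between conditions ran from -1.27 to -0.74. Il4 in Th17 cells ran from -3.03 to -2.13 with libraries left out, where the exact p was 0.1 for 3 against 3 libraries, the smallest they allow, and 0.0571 without any single Th17 deficient library, and with the numbers as a replicate block it was -2.41 (exact p = 0.125, the smallest that 4 pairs allow). Il4 in sufficient cells, Th17 over IL-7, ran from 1.56 to 2.51 and passed the threshold at 1.89 over all rows. The spread in that fit takes in the likeliest reading of the IL-7 deficient digits. Il4's difference between conditions was 0.09 at the next-best powers of 10 of the IL-7 deficient group, the only unsettled one. The 620 rows called in IL-7 cells ran from 49 (without the 4 libraries of BASAL957's number) to 730 with libraries left out and were 905 with the replicate block, and the 5313 rows of the difference between conditions ran from 3230 to 5743 and were 5801 with the block. The Th2 list members called in IL-7 cells, 3 of them, were 5 over all rows, 7 with the replicate block and 0 to 7 with libraries left out. The block changed no other call of the 3 genes. Of 315 results for other named genes 72 lost or gained a call under some alternative, and no called one turned its sign. TMM or total read scaling moved the median of all rows by at most 0.072. Il4 rests on 37 to 62 reads per Th17 deficient library.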
